A study of Homo sapiens with 9 samples.

Results

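The genes described here copy DNA or open the way into S phase: 42 genes of the G1/S transition and of DNA replication, taken by symbol from a list of named genes and all present among the 16630 genes of the deposited expression table. The list was drawn up by function, with earlier results of these data known. In cells given siRNA against exon 11a of ENAH (siMENA11a), all 42 had a lower mean than in control cells, and 24 of 42 fell while 0 of 42 rose at a limma adjusted p under 0.05. Among all 13273 genes tested in that comparison, 6930 had a log2 fold change below 0, and 11.3% fell and 8.16% rose. The median log2 fold change of the 42 genes was -0.33, against -0.01 for all tested genes. In cells given siRNA against all ENAH transcripts (siMENA), 4 of the 42 fell and 2 rose against control, where 8.24% of all tested genes fell and 10.3% rose, and the median was -0.03.

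DNA replication is prepared in G1, when the origin recognition complex, CDC6 and CDT1 load the MCM helicase onto DNA, a step called licensing. At the start of S phase CDC45 and the GINS complex join the helicase and activate it, and polymerases copy the opened strands while the PCNA clamp, its loader and the enzymes of the lagging strand complete them. Many of these genes are transcribed late in G1 by E2F factors, which cyclin E and CDC25A help to release from repression, and their RNA is therefore more abundant in dividing cells.

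RNA was measured in H1650, an established human line of non-small cell lung cancer cells, on day 3 after transfection at 20 nM. Cells of the siMENA11a group were given several siRNAs together that match exon 11a, which is present in the epithelial isoform (hMENA11a) of the actin regulator hMENA. The siMENA group received a commercial pool against all ENAH transcripts, and the control group received a pool without a human target. Each group had 3 libraries of ribosome-depleted total RNA, labelled as biological replicates. The labels do not say whether these came from separate cultures, so p-values measure the spread between these libraries, and the 3 groups share the same line, lipid reagent and dose. Each knockdown rests on 1 pool or mix, so an effect of its target and an effect of its siRNAs on other RNAs cannot be told apart.

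Levels are in FPKM, fragments corrected for the length of the transcript and the depth of the library. Log2 fold changes were computed from FPKM + 1, so those of weakly expressed genes come out smaller than the ratio of their levels. ENAH measured 9.98, 11.0 and 10.3 FPKM in the siMENA11a libraries, 4.43, 5.79 and 5.57 FPKM in the siMENA libraries and 26.1, 30.04 and 26.1 FPKM in the control libraries. No library of either siRNA group reached the lowest control library, with limma adjusted p of 6.29e-05 under siMENA11a and 6.41e-06 under siMENA. With gene-level values, inclusion of exon 11a was not measured. The epithelial genes EPCAM and CDH1 lay between 135 and 286 FPKM in all libraries, whereas SFTPB, a surfactant gene of alveolar cells, stayed at or below 0.305 FPKM. Among the fibroblast markers with a value in all libraries, which leaves out COL1A2, the highest was COL3A1 at up to 3.22 FPKM. The endothelial markers stayed at or below 0.379 FPKM, and of the leukocyte markers none had a value in all libraries. The absolute depth is unknown, but steps between low values put the other 8 libraries at 1.14 to 1.56 times the depth of control replicate 1. Each of these 8 rough estimates rests on 25 to 136 genes with nearly the same ratio, of 733 to 876 compared.

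The promoters of 38 of the 42 genes were found in a RefSeq table of windows from 250 bases before to 50 bases after each gene's start. They were searched on both strands for 4 short words: TTTCCCGC and TTTGGCGC, which E2F factors are known to bind, ATTGG, the core bound by NF-Y, and TTTGAA, the core of the element that represses cell cycle genes outside division. Either E2F-type word stood in 18 of the 38 promoters (47.4%), against 3.79% of the 9219 promoters of tested genes in the table and 2.31% of all 27305. ATTGG stood in 57.9% of the 38 and in 36.7% of the tested genes' promoters. TTTGAA stood in 1 of the 38 promoters, that of RRM1 (2.63%), against 9.63%. The windows shown are 60 bases long and read 5′ to 3′ on the gene's strand of GRCh38.p14. They are shown because they carry the E2F-type word in 6 genes whose RNA fell in siMENA11a cells. Against control, 9 of the 18 genes with either word fell in these cells, as did 13 of the 20 without. The capitals mark the word or its reverse complement.
E2F1, chr20:33686386-33686445, minus strand: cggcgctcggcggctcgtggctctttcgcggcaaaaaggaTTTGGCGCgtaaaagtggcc
MCM3, chr6:52284883-52284942, minus strand: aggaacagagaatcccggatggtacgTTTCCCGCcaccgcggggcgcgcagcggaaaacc
MCM6, chr2:135876500-135876559, minus strand: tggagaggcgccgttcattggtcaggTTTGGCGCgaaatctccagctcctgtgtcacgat
GINS2, chr16:85688955-85689014, minus strand: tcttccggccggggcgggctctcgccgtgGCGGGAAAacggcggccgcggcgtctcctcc
LIG1, chr19:48170425-48170484, minus strand: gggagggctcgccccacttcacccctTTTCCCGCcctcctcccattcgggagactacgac
POLE, chr12:132687343-132687402, minus strand: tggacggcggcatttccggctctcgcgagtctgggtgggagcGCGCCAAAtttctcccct

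Exon 11a is shown because it is the stretch that the siMENA11a siRNAs match. It covers 63 bases at chr1:225504991-225505053 of GRCh38, on the minus strand, and is part of 1 of the 5 coding ENAH transcripts annotated in GENCODE release 29.
ENAH exon 11a: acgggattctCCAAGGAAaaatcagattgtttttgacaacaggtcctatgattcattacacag
The capitals mark 2 overlapping 7-base words, CCAAGGA and CAAGGAA. These words were picked in an earlier look at the same siMENA11a data because genes that carry them in the 3′ UTR fell there, so they are no independent evidence. In the annotated 3′ UTR they stood in 11 of the 42 genes (26.2%), against 26.7% of the 11361 tested genes that have a 3′ UTR annotated. A second pair of words, CAGAATA and AGAATAA, had been picked in the same way from siMENA against control, and stood in 10 of the 42 genes (23.8%), against 29.3% of the tested genes. UNG, the gene of the 42 with the largest fall, carries 1 exon 11a word, within the 24-base window chr12:109110636-109110659 on the plus strand.
UNG 3′ UTR site: aatttgaaCAAGGAAgaggagaaa

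The first comparison asked how the genes differed between siMENA11a and control cells. The 42 log2 fold changes ran from -0.65 to -0.15. In 29 of the 42 genes every siMENA11a library lay below every control library, which held in that direction for 20.2% of all tested genes. Between libraries of the same number, 42, 42 and 41 of the 42 genes were lower in the siMENA11a library of replicates 1, 2 and 3. The share of all tested genes lower between same-numbered libraries was not counted. In bulk RNA, fewer cells in the replicating state and less of each RNA per cell cannot be told apart.

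**Figure D1:**
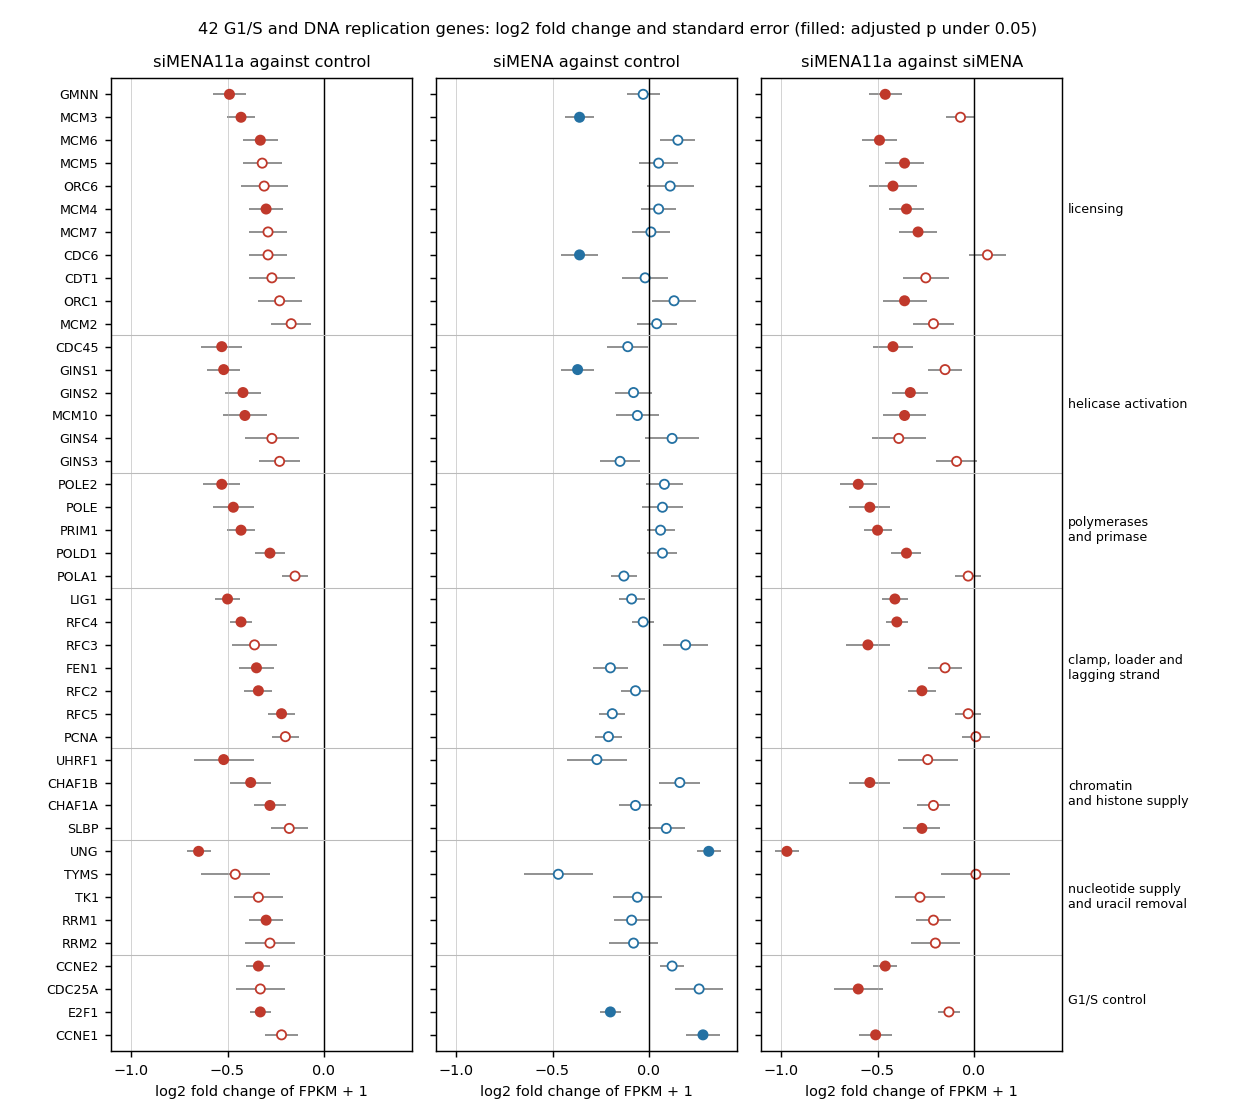
Each row is 1 of the 42 genes, ordered by role, and each panel is 1 comparison; the points give the log2 fold change of FPKM + 1, the bars its standard error (n = 3 libraries per group), and filled points have a limma adjusted p under 0.05. All 42 points lie below 0 in siMENA11a against control, whereas they scatter around 0 in siMENA against control.

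Licensing genes are the factors that recognise origins and load the helicase. Of the 11, GMNN, MCM3, MCM6 and MCM4 fell in siMENA11a cells. GMNN encodes geminin, the inhibitor of CDT1 that prevents a further round of licensing. It measured 12.0, 13.1 and 15.3 FPKM in siMENA11a libraries, 19.3, 18.5 and 18.7 FPKM in siMENA libraries and 19.4, 17.7 and 20.6 FPKM in control libraries. The siMENA11a libraries lay below all 6 others, and the fall against control was 0.49 on the log2 scale (SE 0.0848, limma adjusted p 0.00407). MCM3, a subunit of the ring-shaped helicase, measured 11.0, 13.2 and 11.6 FPKM in siMENA11a libraries, 12.1, 13.3 and 12.3 FPKM in siMENA libraries and 16.6, 16.9 and 15.7 FPKM in control libraries. Both siRNA groups lay below all control libraries and overlapped each other. MCM3 fell by 0.43 in siMENA11a against control (SE 0.0736, adjusted p 0.00376). MCM6 and MCM4, 2 further ring subunits, fell by 0.33 and 0.30 (adjusted p 0.0293 and 0.0442), and the MCM4 libraries of the groups overlapped. The other ring subunits MCM5, MCM7 and MCM2 had log2 fold changes of -0.32, -0.29 and -0.17 and did not pass. Nor did ORC1 and ORC6, subunits of the origin recognition complex, at -0.23 and -0.31, or the loaders CDC6 and CDT1, at -0.29 and -0.27. The adjusted p of these 7 ran from 0.0536 for MCM5 to 0.289 for MCM2.

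Helicase activation showed 4 falls among 6 genes. CDC45, which joins the loaded ring at the start of S phase, measured 10.2, 11.9 and 9.83 FPKM in siMENA11a libraries, 16.2, 15.1 and 12.5 FPKM in siMENA libraries and 14.7, 17.6 and 15.1 FPKM in control libraries. Its siMENA11a libraries lay below all others, at 67.4% of the control mean (log2 fold change -0.53, SE 0.106, adjusted p 0.00808). GINS1, a subunit of the GINS complex, measured 22.9, 24.6 and 19.8 FPKM in siMENA11a libraries, 24.4, 26.3 and 24.2 FPKM in siMENA libraries and 30.3, 35.9 and 31.6 FPKM in control libraries. As for MCM3, both siRNA groups lay below control. GINS1 reached 68.8% of the control mean under siMENA11a (log2 fold change -0.52, adjusted p 0.00335). GINS2, its partner subunit, measured 10.6, 13.4 and 12.8 FPKM in siMENA11a libraries, 15.8, 16.6 and 14.6 FPKM in siMENA libraries and 15.2, 18.1 and 16.9 FPKM in control libraries. The siMENA11a libraries again lay below all others, with a log2 fold change of -0.42 against control (adjusted p 0.0134). MCM10, which aids the activation of the helicase, was low throughout, at 2.76, 3.74 and 3.17 FPKM in siMENA11a libraries, 4.63, 4.41 and 4.11 FPKM in siMENA libraries and 4.05, 5.47 and 4.34 FPKM in control libraries. It fell by 0.41 against control (adjusted p 0.0304). The GINS subunits GINS3 and GINS4 had log2 fold changes of -0.23 and -0.27 (adjusted p 0.149 and 0.211), and their libraries overlapped between the groups.

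**Figure D2:**
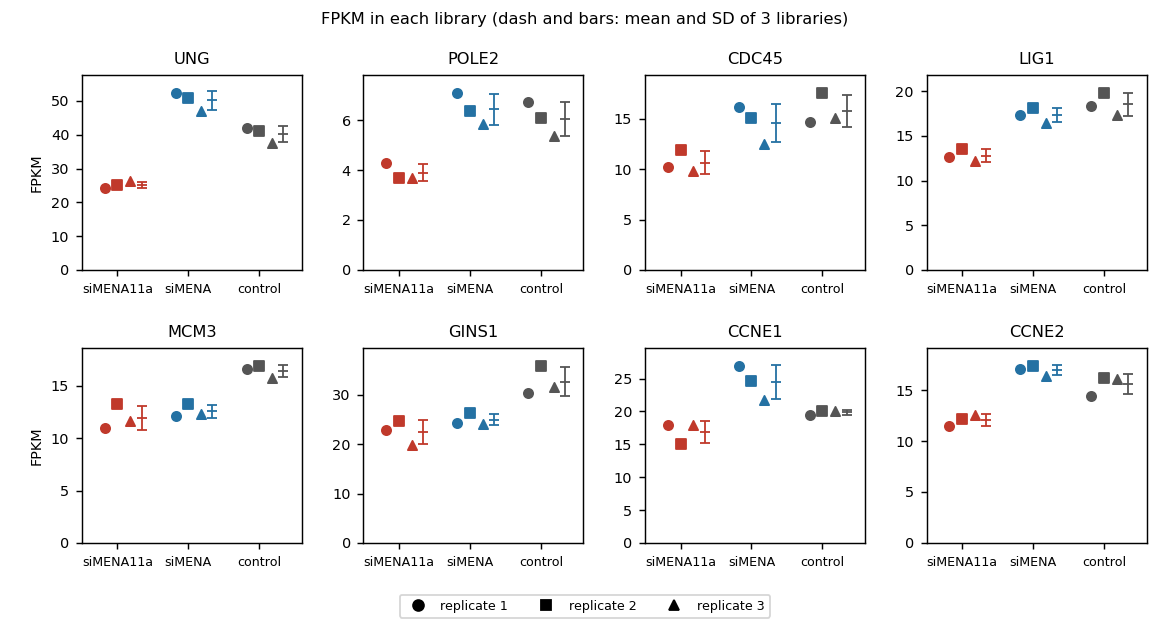
FPKM in each library for 8 of the genes, with 1 point per library, shapes for the replicate numbers, and a dash with bars for the mean and SD of the 3 libraries of a group. The siMENA11a libraries of UNG, POLE2, CDC45, LIG1, CCNE1 and CCNE2 lie below all others, whereas those of MCM3 and GINS1 lie with the siMENA libraries below control.

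Among polymerase and primase genes, 4 of 5 fell. POLE2, the accessory subunit of polymerase epsilon of the leading strand, measured 4.29, 3.69 and 3.70 FPKM in siMENA11a libraries, 7.11, 6.35 and 5.85 FPKM in siMENA libraries and 6.71, 6.10 and 5.35 FPKM in control libraries. POLE, the catalytic subunit of the same enzyme, measured 7.95, 9.77 and 6.80 FPKM in siMENA11a libraries, 11.7, 12.6 and 12.4 FPKM in siMENA libraries and 10.7, 12.3 and 11.9 FPKM in control libraries. In both genes the siMENA11a libraries lay below all others, with log2 fold changes against control of -0.53 for POLE2 (adjusted p 0.00514) and -0.47 for POLE (adjusted p 0.0134). PRIM1, the catalytic subunit of the primase that starts new strands, measured 11.2, 11.8 and 11.5 FPKM in siMENA11a libraries, 17.7, 17.4 and 15.0 FPKM in siMENA libraries and 15.6, 16.9 and 15.1 FPKM in control libraries. The spread within siMENA11a was small, with an SD of 0.278 FPKM, and the fall was 0.43 (SE 0.0725, adjusted p 0.00355). POLD1, the catalytic subunit of polymerase delta of the lagging strand, fell by 0.28 (adjusted p 0.0321). POLA1, the polymerase that extends the primers, averaged 5.51 ± 0.34 FPKM in siMENA11a and 6.22 ± 0.17 FPKM in control libraries (SD, n = 3 each), and the adjusted p was 0.141 although the libraries did not overlap.

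Of the 7 genes for the clamp, its loader and the lagging strand, 5 fell, and in all 7 every siMENA11a library lay below every control library. LIG1, the ligase that seals Okazaki fragments, measured 12.7, 13.5 and 12.2 FPKM in siMENA11a libraries, 17.4, 18.1 and 16.5 FPKM in siMENA libraries and 18.4, 19.8 and 17.3 FPKM in control libraries. RFC4, a subunit of the clamp loader, measured 17.3, 18.1 and 18.3 FPKM in siMENA11a libraries, 24.8, 24.4 and 22.7 FPKM in siMENA libraries and 23.1, 24.7 and 25.6 FPKM in control libraries. Neither gene had a siMENA11a library within the range of the others. LIG1 fell by 0.50 and RFC4 by 0.43 against control (adjusted p 0.00117 and 0.00121). FEN1, the nuclease that trims the flaps of Okazaki fragments, fell by 0.35, and the loader subunits RFC2 and RFC5 fell by 0.34 and 0.22 (adjusted p 0.0229, 0.0115 and 0.0431). The subunit RFC3 had a log2 fold change of -0.36 (adjusted p 0.0525). PCNA, the clamp itself, had the highest control mean of the 42 genes, at 83.2 FPKM, and averaged 72.6 ± 7.4 FPKM in siMENA11a libraries against 83.2 ± 2.8 FPKM in control libraries (log2 fold change -0.20, adjusted p 0.0761).

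Among the 4 genes for chromatin and histone supply, 3 fell. UHRF1, which guides DNA methylation to newly copied strands, measured 8.10, 10.1 and 5.87 FPKM in siMENA11a libraries, 9.05, 10.1 and 9.33 FPKM in siMENA libraries and 10.2, 13.4 and 11.6 FPKM in control libraries. Its siMENA11a libraries spread widely and the highest lay just under the lowest control library, at a log2 fold change of -0.52 (SE 0.155, adjusted p 0.0415). CHAF1B, a subunit of the chromatin assembly factor that places histones on new DNA, measured 4.83, 5.80 and 4.33 FPKM in siMENA11a libraries, 7.33, 8.35 and 7.42 FPKM in siMENA libraries and 5.89, 7.47 and 7.01 FPKM in control libraries. It fell by 0.38, and its partner CHAF1A by 0.28 (adjusted p 0.033 and 0.0442). SLBP, the protein that binds the stem-loop of histone RNAs, had a log2 fold change of -0.18 (adjusted p 0.215).

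Nucleotide supply and uracil removal held the largest fall of the 42 genes. UNG, the glycosylase that removes uracil from DNA, measured 24.2, 25.1 and 26.2 FPKM in siMENA11a libraries, 52.5, 50.9 and 47.1 FPKM in siMENA libraries and 41.9, 41.1 and 37.4 FPKM in control libraries. The 3 groups did not overlap, with siMENA highest and siMENA11a lowest. UNG reached 62.6% of the control mean under siMENA11a (log2 fold change -0.65, SE 0.0625, adjusted p 0.000185). RRM1, the large subunit of ribonucleotide reductase, fell by 0.30 (adjusted p 0.0401). The other 3 genes did not pass: RRM2, the small subunit, had a log2 fold change of -0.28, TK1, the thymidine kinase, -0.34, and TYMS, the thymidylate synthase, -0.46, with adjusted p from 0.0901 to 0.163. TYMS measured 5.32, 8.23 and 4.33 FPKM in siMENA11a libraries against 7.05, 8.65 and 9.36 FPKM in control libraries, so that siMENA11a replicate 2 lay within the control range. Its 95% interval of -0.86 to -0.06 on the log2 scale, not adjusted for the number of genes, was the widest of the 42.

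Among the 4 genes of G1/S control, CCNE2 and E2F1 fell. CCNE2, which encodes cyclin E2, averaged 12.1 ± 0.6 FPKM in siMENA11a libraries and 15.6 ± 1.0 FPKM in control libraries (log2 fold change -0.34, adjusted p 0.00498). E2F1, an activating member of the E2F factors, averaged 49.4 ± 1.6 FPKM in siMENA11a and 62.3 ± 4.0 FPKM in control libraries (SD, n = 3 each; log2 fold change -0.33, adjusted p 0.0037). CDC25A, the phosphatase that activates CDK2, and CCNE1, which encodes cyclin E1, had log2 fold changes of -0.33 and -0.22 (adjusted p 0.0912 and 0.102).

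The count of 24 falls depended on single libraries. It was 14 without siMENA11a replicate 1, 14 without siMENA11a replicate 3, 14 without control replicate 2 and 13 without control replicate 3, whereas it was 37 without siMENA11a replicate 2. The 13 genes called in all 9 of these fits were CCNE2, CDC45, E2F1, GINS1, GINS2, GMNN, LIG1, MCM3, POLE2, PRIM1, RFC2, RFC4 and UNG. The calls of CHAF1A, CHAF1B, FEN1, MCM10, MCM4, MCM6, POLD1, RFC5, RRM1 and UHRF1 were lost in 4 or more of the 9 fits, with adjusted p up to 0.143, and that of POLE was lost in 1 fit, at 0.0502 without control replicate 3. Other scalings left 24 falls (median-ratio) or 22 (quantile).

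The libraries of replicate 2 tended to be the highest of their group for these genes. Replicate 2 was the highest library of its group for 35 of the 42 genes in siMENA11a, 28 in siMENA and 37 in control. In siMENA, replicate 3 was the lowest for 27 of the 42. The share of all tested genes with replicate 2 highest was not counted. The median of the 42 log2 differences from the control mean was -0.41, -0.15 and -0.41 in siMENA11a replicates 1 to 3, 0.00, 0.03 and -0.08 in siMENA and -0.09, 0.10 and -0.04 in control. The siMENA11a medians thus all lay below the other 6, with replicate 2 nearest to them. Over all tested genes the library medians lay between -0.01 and 0.04. Without the libraries numbered 2 in all 3 groups, 31 of the 42 genes fell in siMENA11a against control. What this shift between replicate numbers goes with was not tested.

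**Figure D3:**
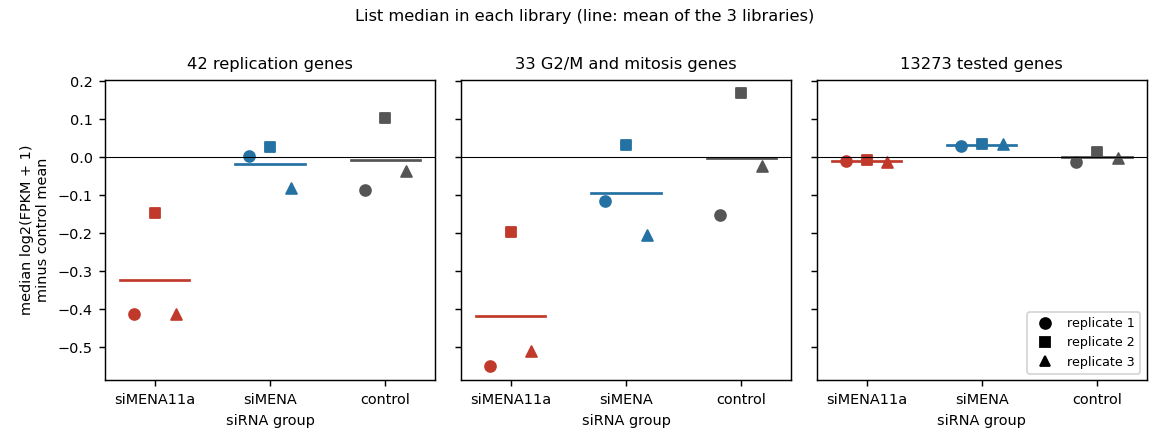
Median difference of log2(FPKM + 1) from the control mean in each library, for the 42 genes, 33 genes of G2/M and mitosis and all 13273 tested genes, with lines for the mean of 3 libraries and shapes for the replicate number. In both gene lists the squares of replicate 2 are the highest of each group, and for the 42 genes the siMENA11a libraries lie below the other 6.

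The second comparison set siMENA against control, with the same control libraries. The genes that fell were MCM3, GINS1, CDC6 and E2F1, and those that rose were UNG and CCNE1. The 4 falls among the 42 genes were near the 8.24% share of all tested genes, and the 2 rises lay below the 10.3% share. MCM3 averaged 12.5 ± 0.7 FPKM in siMENA and 16.4 ± 0.6 FPKM in control libraries (SD, n = 3 each; log2 fold change -0.36, SE 0.0736, adjusted p 0.00873). GINS1 averaged 25.0 ± 1.2 FPKM in siMENA and 32.6 ± 2.9 FPKM in control libraries (log2 fold change -0.37, adjusted p 0.0161). CDC6 averaged 17.7 ± 1.8 FPKM in siMENA and 23.0 ± 2.1 FPKM in control libraries (log2 fold change -0.36, adjusted p 0.0279). The fall of E2F1 was smaller, at 0.20 (SE 0.0556, adjusted p 0.0351). UNG rose to a mean of 50.2 ± 2.8 FPKM in siMENA, against 40.2 ± 2.4 FPKM in control libraries (log2 fold change 0.31, SE 0.0625, adjusted p 0.00803). CCNE1 averaged 24.5 ± 2.6 FPKM in siMENA and 19.9 ± 0.4 FPKM in control libraries (log2 fold change 0.28, adjusted p 0.0475).

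Of these 6 calls, MCM3 and UNG held when any 1 library was left out, but UNG no longer passed without the libraries numbered 2 (adjusted p 0.05). GINS1 was lost without siMENA replicate 1 (adjusted p 0.0608) or control replicate 2 (0.0524). CDC6, E2F1 and CCNE1 were lost in 4 to 6 of the 9 fits. The number of falls was 1 without siMENA replicate 1 or control replicate 2, 2 without siMENA replicate 3 and 7 without siMENA11a replicate 2, while the number of rises was 1 without siMENA11a replicate 1, siMENA replicate 1 or 2, or control replicate 1 or 3. With the replicate number as a block, 7 genes fell and 3 rose. The added falls were FEN1 (adjusted p 0.0232), RFC5 (0.0294) and PCNA (0.0336), and the added rise was CDC25A (0.0242). CCNE1 missed the threshold under median-ratio and quantile scaling (adjusted p 0.0794 and 0.0733).

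For the other 36 genes the log2 fold changes under siMENA ran from -0.47 for TYMS (adjusted p 0.0979, 95% interval -0.86 to -0.07) to 0.26 for CDC25A (adjusted p 0.174, interval -0.02 to 0.54). MCM2, MCM4, MCM5 and MCM7 lay between 0.01 and 0.05, with 95% intervals between -0.21 and 0.27. Against control, PCNA had log2 fold changes of -0.20 under siMENA11a and -0.21 under siMENA, and TYMS had -0.46 under siMENA11a and -0.47 under siMENA.

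**Figure D4:**
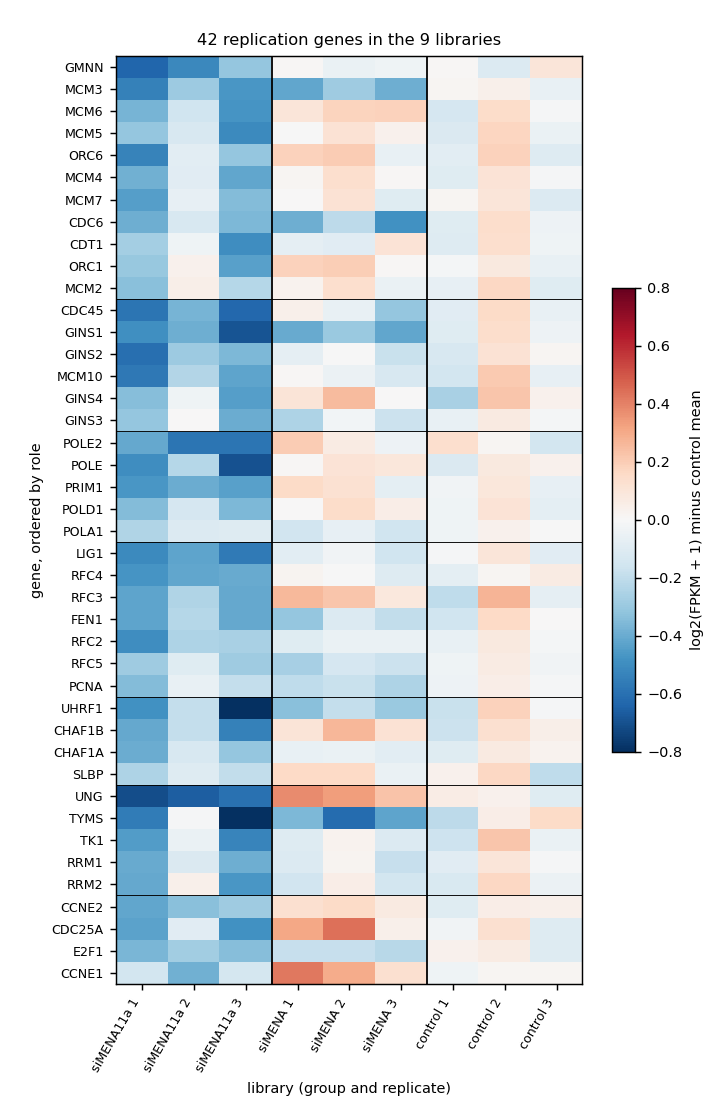
Difference of log2(FPKM + 1) from the control mean for each of the 42 genes (rows, ordered by role) in each of the 9 libraries (columns), with blue for lower and red for higher values, from -0.89 to 0.44; the colours end at 0.8 on either side. The siMENA11a columns are blue for nearly all genes, paler in replicate 2, and the siMENA columns mix blue rows such as MCM3, GINS1 and TYMS with red rows such as UNG, CDC25A and CCNE1.

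The third comparison tested the difference between the siRNAs, siMENA11a against siMENA. Here 24 of the 42 genes were lower and 0 higher in siMENA11a, where 22.2% of all tested genes were lower and 14.4% higher, and the median log2 fold change was -0.34, against -0.05 for all tested genes. Every siMENA11a library lay below every siMENA library in 25 genes, and this direction held for 28.6% of all tested genes. UNG showed the largest difference, at 50.1% of the siMENA mean (log2 fold change -0.97, SE 0.0625, adjusted p 9.5e-06). CDC25A and POLE2 followed at -0.60 each (adjusted p 0.00488 and 0.00107), then RFC3 at -0.55, CHAF1B and POLE at -0.54 and CCNE1 at -0.51. CDC25A averaged 7.25 ± 1.25 FPKM in siMENA11a and 11.5 ± 1.7 FPKM in siMENA libraries (SD, n = 3 each). ENAH itself was higher in siMENA11a than in siMENA libraries, by 0.87 on the log2 scale (adjusted p 0.000112). Of the 24 falls, 14 were called in all 9 fits that leave out 1 library. The count was 15 without siMENA replicate 2.

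Set side by side, the 2 comparisons of siMENA11a called 16 genes lower against control and against siMENA: CCNE2, CDC45, CHAF1B, GINS2, GMNN, LIG1, MCM10, MCM4, MCM6, POLD1, POLE, POLE2, PRIM1, RFC2, RFC4 and UNG. A further 8 passed against control and not against siMENA, and among them MCM3, GINS1 and RFC5 had log2 fold changes of -0.07, -0.15 and -0.03 against siMENA. For MCM3 the 95% interval of that difference was -0.23 to 0.10, and for GINS1 it was -0.34 to 0.04. The other 5 of these were CHAF1A, E2F1, FEN1, RRM1 and UHRF1, at -0.24 to -0.13 against siMENA. Another 8 passed against siMENA and not against control, namely CCNE1, CDC25A, MCM5, MCM7, ORC1, ORC6, RFC3 and SLBP. Of these, MCM7 and SLBP (adjusted p 0.0409 and 0.0498) each lost the call in 5 of the 9 fits without 1 library, and also under median-ratio scaling, quantile normalization, no filter and no trend. ORC1 and ORC6 each lost it in 4 of the 9 fits and MCM5 in 2, whereas CCNE1, CDC25A and RFC3 kept it in all 9. CDC6 was called lower in siMENA alone and differed by 0.07 between the siRNAs (interval -0.15 to 0.28). The 9 genes called in none of the 3 comparisons were CDT1, GINS3, GINS4, MCM2, PCNA, POLA1, RRM2, TK1 and TYMS. In 20 of the 42 genes every siMENA11a library lay below all 6 siMENA and control libraries, as in 1844 of the 13273 tested genes.

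Members with and without the promoter and 3′ UTR words were then counted, without a test of the difference. In siMENA11a against control, 9 of the 18 genes with an E2F-type word fell, with a median log2 fold change of -0.35, and 13 of the 20 genes without one fell, with a median of -0.32. In siMENA against control, the 4 genes that fell carried the word and the 2 that rose did not. This split did not hold with the replicate block, where FEN1 and RFC5 also fell without the word and CDC25A rose with it. The calls of GINS1, CDC6, E2F1 and CCNE1 behind it were lost in 2, 4, 6 and 6 of the 9 fits without 1 library. For the 3′ UTR words of exon 11a, 7 of the 11 genes with a word fell in siMENA11a cells, with a median of -0.34, and 17 of the 31 without fell, with a median of -0.33. The genes with a word that fell were CCNE2, GINS2, LIG1, MCM4, RFC2, UHRF1 and UNG, while CDC25A, CDC6, GINS3 and POLA1 also carry one and did not pass.

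Other genes of the same processes were taken from lists by function. Of 38 tested replication factors outside the 42, 17 fell and 0 rose in siMENA11a against control, with a median of -0.23. Among all tested genes 11.3% fell and 8.16% rose there. The 17 falls became 13 without siMENA11a replicate 1 or control replicate 2, and 21 without siMENA11a replicate 2. The largest falls were in DSCC1 and CHTF18, parts of the clamp loader for sister chromatid cohesion, in DUT, which removes dUTP, and in the helicase RECQL4, at log2 fold changes of -0.79, -0.55, -0.58 and -0.53 (adjusted p 0.000894, 0.0007, 0.000269 and 0.00157). In siMENA against control 9 of the 38 fell and 5 rose. There 8.24% of all tested genes fell and 10.3% rose, so that the rises were near the share of all genes. POLE4 and POLE3, small subunits of polymerase epsilon, fell by 0.60 and 0.52, and RPA2, a subunit of the factor that coats single strands, rose by 0.46 (adjusted p 0.000804, 0.000577 and 0.00734). Falls numbered 6 without siMENA replicate 1, 2 or 3 or control replicate 2. The number of rises was 3 without siMENA11a replicate 1, siMENA replicate 1 or 2, or control replicate 1 or 3. The block by replicate number gave 10 falls and 8 rises. DSCC1 and CHTF18 were also the most different between the siRNAs, at -1.11 and -0.90 in siMENA11a against siMENA (adjusted p 4.74e-05 and 1.98e-05). In that comparison 22 of the 38 were lower and 5 higher, where 22.2% of all tested genes were lower and 14.4% higher. The 22 became 17 without siMENA11a replicate 1 or 3 or siMENA replicate 2, and the 5 became 3 without siMENA replicate 1.

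Of 26 other genes of G1/S control, 4 fell and 2 rose in siMENA11a against control, with a median of -0.08, shares near the 11.3% and 8.16% of all tested genes. CDK4, the kinase of the D cyclins, fell by 0.37 and E2F6, a repressing E2F factor, rose by 0.38 (adjusted p 0.00394 and 0.0081), and the rise of E2F6 missed the threshold without the libraries numbered 2 (0.0536). The fall of E2F8, another repressing factor, at 0.40, and that of CDK2, the partner of cyclin E, at 0.25 (adjusted p 0.0423 and 0.0368) were each lost in 7 of the 9 fits without 1 library. The count of falls was 1 without siMENA11a replicate 1 or 3 or control replicate 2 or 3 and 2 without any single siMENA library. In siMENA against control, where 8.24% of all tested genes fell and 10.3% rose, 3 of the 26 fell and 5 rose, among them CDK6 at -0.71, MYC at 0.59 and E2F5 at 0.45 (adjusted p 0.0035, 0.000522 and 0.0135), of which E2F5 was lost without siMENA replicate 1 or control replicate 1 (adjusted p 0.055 and 0.0501). There 1 fell without siMENA replicate 1 or 3 or any single control library, and 2 and 3 rose without siMENA replicate 1 and control replicate 1. With the replicate block 5 fell and 7 rose.

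Genes of G2/M and mitosis are transcribed later in the cycle than those of replication. All 33 had a lower mean in siMENA11a than in control libraries, and 18 fell and 0 rose, with a median of -0.44. Of the 13273 tested genes, 6930 had a log2 fold change below 0 in this comparison, and 11.3% fell and 8.16% rose. CDC20, which activates the anaphase-promoting complex, KIF20A, a kinesin of cell division, BUB1B, a checkpoint kinase, and CENPF, a kinetochore protein, fell by 0.66, 0.56, 0.56 and 0.54 (adjusted p 0.00764, 0.00201, 0.00783 and 0.00916). The count of 18 was 12 without siMENA11a replicate 1, siMENA11a replicate 3 or control replicate 2, and 30 without siMENA11a replicate 2. In siMENA against control 4 of the 33 fell and 0 rose, a share of falls near the 8.24% of all tested genes, of which 10.3% rose. TOP2A, the topoisomerase that untangles DNA, fell by 0.71 and NEK2, a centrosome kinase, by 0.48 (adjusted p 0.00079 and 0.0141). Both also fell in siMENA11a against control, at log2 fold changes of -0.46 and -0.49 (adjusted p 0.00662 and 0.0127). Under siMENA the falls of ANLN and PTTG1, at 0.41 and 0.35, were lost in 4 and 5 of the 9 fits. The siMENA count was 2 without siMENA replicate 1 or 3 or control replicate 2 or 3, 7 without siMENA11a replicate 2 and 10 with the replicate block. In siMENA11a against siMENA 14 of the 33 were lower and 1, TOP2A, was higher, where 22.2% of all tested genes were lower and 14.4% higher. Without siMENA11a replicate 1 the 14 became 8, and without siMENA11a replicate 2 there were 23 lower and 0 higher. Whether the share of dividing cells differed between the groups was not tested.

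Exons of 10 of the 42 genes overlap those of another coding gene on either strand in GENCODE, among them TYMS with ENOSF1, RFC4 with EIF4A2, PRIM1 with NACA and CCNE2 with INTS8. Named pseudogenes exist for PCNA, RFC3, RFC5, UNG, TYMS, RRM2 and FEN1. The libraries were stranded per the labels, but how strand was used in counting is not stated in what was available here, so part of these values may come from the overlapping genes or copies.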

How the data were processed

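The authors deposited 1 table of FPKM values for 16630 genes in 9 libraries. Per the labels' protocols, RNA was depleted of ribosomal RNA and sequenced as stranded pairs of 75 bases. The submitters' processing notes name hg19, while aligner, counting tool and annotation were not given in the sources used here. Part of the values had lost the decimal point: 11524 whole-number values (7.91%), at least 198.2-fold above the other values of their gene where it had decimal ones, were divided by 1000, including 27 of the 378 values of the 42 genes, in 20 genes. A further 1286 genes lacked a value in some library and were not tested. FPKM sums were 558754 to 592930 per library. Without counts, precision rests on the 3 libraries per group.

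The 13273 genes that averaged 0.5 FPKM or more were compared as log2(FPKM + 1) with limma 3.58.1 in R 4.3.3, in 1 fit over all 9 libraries with group as the only term, a mean-variance trend and 6 residual degrees of freedom. Within each comparison p-values were adjusted over all tested genes (Benjamini-Hochberg), and "fell" and "rose" mean an adjusted p under 0.05. The fit was tested on simulated data in which libraries were independent. Those data held no shift between replicate numbers, so the test does not bear on such a shift. The 42 genes and all other lists were chosen with earlier results of these data known. Values in every library are given for the 14 called genes without overlap between groups that had the largest change in siMENA11a against control, and up to 4 called genes of the largest change are named from each other list, except for a gene that is not reported here.

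Groups share replicate numbers. Deviations of same-numbered control and siMENA libraries correlated at 0.124, 0.378 and 0.196 over genes, each above 0.1, which by the rule used counts as pairing, though the labels do not say what a number marks. The main counts and adjusted p still come from the fit with group as the only term. With the replicate block, 7 of the 42 genes fell and 3 rose in siMENA against control. Promoter sequences are from RefSeq (GRCh38.p14) and transcripts from GENCODE release 29 (GRCh38). No coordinates of the authors' build were used. Alternatives were other pseudocounts, filters, scalings and fits, a replicate block, leaving out repaired genes or 1 library, and, added after the data were seen, leaving out the libraries numbered 2 or the genes with any of the 4 words picked in the siRNA groups in the 3′ UTR.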

Additional observations from a re-analysis of the deposited data

How the results depend on the processing

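No value for the 42 genes changed direction with a call under any alternative, and no median of the 42 moved by more than the spread between libraries (0.111). In siMENA11a against control the 24 falls became 15 in a fit of those 2 groups alone, 12 (of 22 genes left) without genes that held a repaired value, 11 (of 25 left) without genes with any of the 4 words picked in the siRNA groups in the 3′ UTR, and 13 to 37 with 1 library left out. In siMENA against control the 4 falls became 7 with the replicate block, 1 without repaired genes and 1 to 7 with 1 library left out. The 2 rises there became 1 with no filter, median-ratio scaling, quantile normalization, no trend or no repaired genes, 0 without the libraries numbered 2 or without 3′ UTR words, and 1 to 2 with 1 library left out. In siMENA11a against siMENA the 24 falls became 13 (of 22 genes left) without repaired genes and 13 (of 25 left) without 3′ UTR words. They were 15 to 32 with 1 library left out. Leaving out genes took called genes out of these fits. Here 13 called genes stayed without repaired genes, with 0 calls lost, and 14 without 3′ UTR words, with SLBP lost. In siMENA11a against control 13 stayed in either fit, with CHAF1A lost in both and RRM1 in the second. In siMENA against control 3 and 4 stayed, and CCNE1 alone was lost. Over all genes, the 2583, 2463 and 4857 calls became 1362, 1293 and 2716 without repaired genes and 1233, 1216 and 2654 without 3′ UTR words. The first 2 were 1641 and 1614 without the libraries numbered 2, and 1493 to 2483 and 1346 to 2902 with 1 library left out. Fewer genes or libraries enter these fits. Scaling changed the split of calls. In siMENA against control 1369 rose and 1094 fell, against 1051 and 1345 with median-ratio scaling and 1174 and 1270 with quantile normalization. In siMENA11a against siMENA 1916 were higher and 2941 lower, against 2307 and 2316, and 2283 and 2365. The replicate block gave 34 falls of the 42 in siMENA11a against control, and 9 of the 26 other G1/S control genes, 27 of the 33 G2/M genes and 21 of the 38 other replication factors. Same-numbered deviations in that comparison correlated at 0.206, 0.425 and -0.0302. They correlated at 0.0863, 0.309 and 0.0203 between siMENA11a and siMENA, where the replicate block gave 31 falls of the 42.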
